A study of Mus musculus with 16 samples.

Results

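Collagen genes were followed beyond the lesion of crushed mouse sciatic nerves, in WldS mice and in wild-type C57BL/6 mice. They were taken by name, as every gene of the array's probe table with 1 symbol made of Col, a number, a and a number, and the probe set that was brightest on average over all 16 arrays stood for each. This gave 42 collagen genes among the 18193 genes on the array. Of these, 37 lay above a limit on dim signal (the 30th percentile of all probe sets, a log2 signal of 5.37) and entered the tests, beside 14545 genes in all. They comprised 11 genes of fibrillar collagens (9 tested), the 6 genes of the basement membrane collagen type IV (6 tested) and 25 other collagen genes (22 tested).

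The strains were the WldS mutant, C57BL/6 OlaHsd-Wlds, and wild-type C57BL/6. Each strain was sampled at days 0, 3, 7 and 14 after a microcrush of the left sciatic nerve at mid-thigh, day 0 being nerves of naive, uninjured mice, with 2 arrays in each of the 8 groups. Mice were 8 to 12 weeks old, 56 per strain, and a 4 mm piece of nerve, from 1 to 5 mm beyond the lesion in injured mice, was taken after connective tissue had been removed. Tissue was pooled before RNA extraction, and the labels call the 2 arrays of a group biological replicates without giving the mice per pool, so all p-values measure the spread between pools. In WldS mice cut or crushed axons are known to degenerate slowly, so the comparison sets a nerve with delayed against one with normal axon breakdown. The labels name OlaHsd for the mutant alone, so effects of the mutation and of the substrain cannot be told apart.

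Collagens are trimers of helical chains, and each gene encodes 1 chain. The fibrillar types (I, II, III, V, XI, XXIV and XXVII) form or nucleate banded fibrils, which in nerve lie in the endoneurium, perineurium and epineurium. Type IV chains assemble into the sheet of the basement membrane, which in nerve surrounds each Schwann cell, the perineurial cells and the capillaries, and which is known to persist as a tube after the axon has gone. The remaining types are bound to fibrils (the FACIT group), form beaded filaments (VI), anchoring fibrils (VII) or hexagonal networks (VIII and X), carry heparan or chondroitin sulphate at basement membranes (XV and XVIII), or span the cell membrane (XIII, XVII, XXIII and XXV).

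The deposited values are normalized log2 signals, with array medians between 6.42 and 6.49. Markers of myelinating nerve were bright in the tissue: over the 16 arrays, log2 signals ran from 12.15 to 14.36 for Mbp (myelin basic protein), from 12.14 to 14.17 for Pmp22 (a myelin membrane protein) and from 11.02 to 12.25 for Sox10 (the Schwann cell transcription factor). A pair of arrays stood apart in RNA quality. The 3′/5′ index, the mean log2 excess of 3′ over 5′ signal for actin and Gapdh control probe sets, reached 3.81 for replicate 1 of WldS day 0. It reached 3.23 for replicate 2 of WldS day 14 and lay between 1.63 and 2.46 on the others. The collagen changes from day 0 and differences between the strains that lose their call without both arrays are given with and without them. In pooled bulk tissue, fewer cells of a type and less RNA per cell cannot be told apart.

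More collagen genes rose than fell after the crush in both strains, most at day 7. In WldS nerves, 12, 19 and 13 of the 37 genes rose and 6, 2 and 2 fell at days 3, 7 and 14 relative to day 0 (limma, Benjamini-Hochberg adjusted p below 0.05). Among all genes tested, 20.8%, 21.9% and 12.7% rose and 15.2%, 13.3% and 8.56% fell in the same comparisons. In C57BL/6 nerves, 11, 16 and 11 collagen genes rose and 8, 5 and 5 fell, where 22.6%, 19.6% and 17.1% of all genes rose and 18.4%, 16.4% and 16.7% fell. At day 3 both counts were thus near the background in C57BL/6, while at day 7 the share of collagen genes that rose was above it in both strains. The median collagen change at days 3, 7 and 14 was 0.09, 0.44 and 0.33 on the log2 scale in WldS and 0.00, 0.28 and 0.14 in C57BL/6, while the medians over all genes lay between -0.02 and 0.02. At day 7, 13 genes rose in both strains, which is 68.4% of those that rose in WldS and 81.2% of those in C57BL/6, and no gene rose in one strain and fell in the other at any of the 3 days. Without WldS day 3 replicate 1, 9 genes were called in WldS at day 3.

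**Figure D1:**
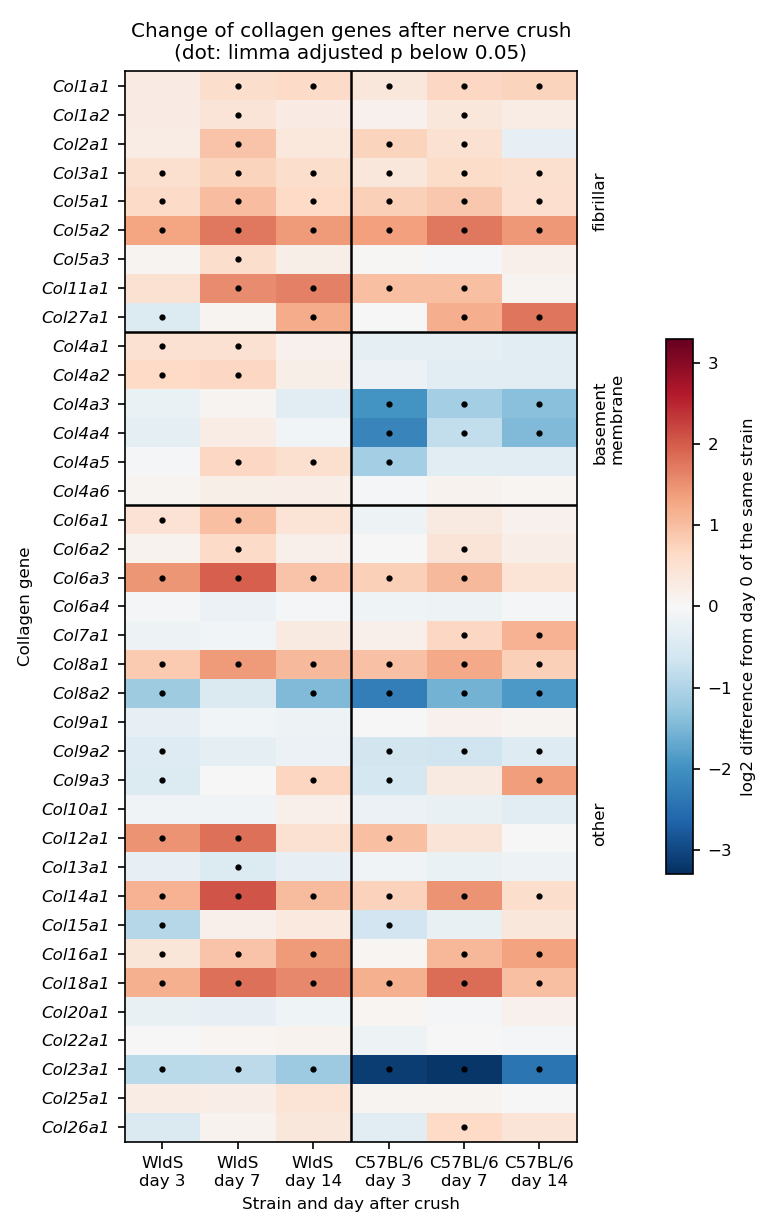
Change of each of the 37 tested collagen genes from day 0 of its own strain (rows, grouped as fibrillar, basement membrane and other), for WldS in the left 3 columns and C57BL/6 in the right 3, as a log2 difference from blue (lower) to red (higher), with a dot where limma's adjusted p was below 0.05. Rows of fibrillar genes are mostly red in both strains, while Col4a3, Col4a4 and Col23a1 are darker blue in C57BL/6 than in WldS.

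By class, of the 9 fibrillar genes, 3, 8 and 6 rose in WldS at days 3, 7 and 14 (medians 0.27, 0.75 and 0.64) and 6, 8 and 5 rose in C57BL/6 (medians 0.38, 0.68 and 0.52). Among these 9 genes Col27a1 alone fell, in WldS at day 3. Col24a1, a fibrillar gene that the dim limit left out of these counts, fell in both strains in a fit without that limit. Of the 6 type IV genes, 2, 3 and 1 rose and none fell in WldS (medians 0.01, 0.38 and 0.18), whereas none rose and 3, 2 and 2 fell in C57BL/6 (medians -0.71, -0.36 and -0.37). The 22 other genes were mixed, with 7, 8 and 6 higher and 5, 2 and 2 lower in WldS, and 5, 8 and 6 higher and 5, 3 and 3 lower in C57BL/6. The mean of the fibrillar genes on each array, relative to the mean of C57BL/6 day 0, lay at 0.41 on both WldS arrays and at 0.51 and 0.55 on the C57BL/6 arrays of day 3, and at 0.88 and 0.89 in WldS and 0.77 on both C57BL/6 arrays of day 7. The mean of the type IV genes was -0.26 on both WldS arrays of day 3, against -0.99 and -0.96 on the C57BL/6 arrays. WldS lay above C57BL/6 without overlap at days 3, 7 and 14. At day 0 the order was reversed, with both WldS arrays below the C57BL/6 arrays (0.03 and -0.03). The WldS arrays of day 0 were themselves apart for type IV, at -0.63 on replicate 1, the array with the highest 3′/5′ index, and -0.10 on replicate 2. The rise from day 0 in WldS thus depends on which array sets the starting level.

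**Figure D2:**
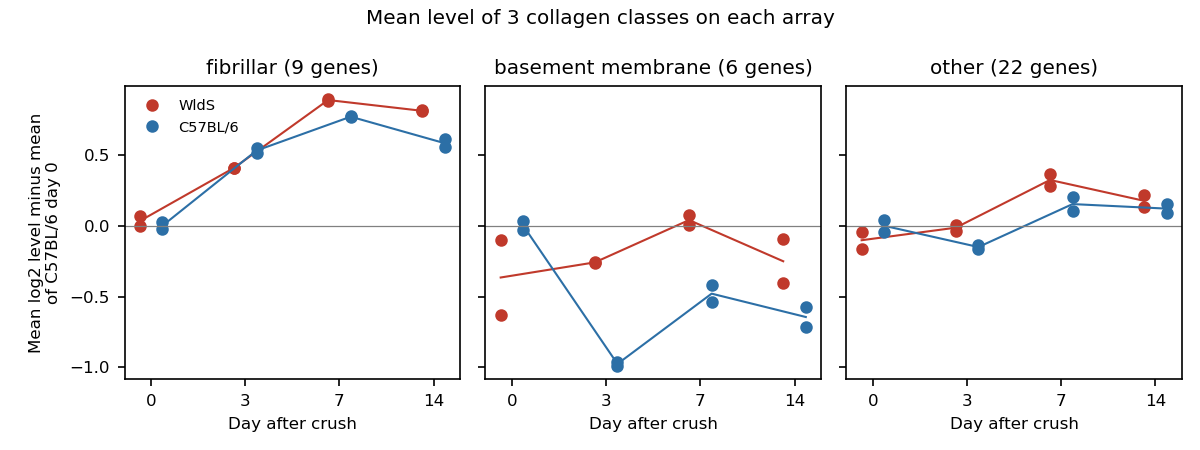
Mean log2 level of the fibrillar (9), basement membrane (6) and other (22) collagen genes on each array, minus the mean of the C57BL/6 day 0 arrays, by day after crush. Each point is 1 array, lines join group means, WldS is red and C57BL/6 blue. Fibrillar genes climb in both strains, while the basement membrane genes drop near -1 at day 3 in C57BL/6 and stay above that in WldS.

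Among fibrillar genes, Col5a2 rose on all 3 days in both strains. It encodes a type V chain, and type V is known to sit inside type I fibrils and to set their width. The log2 signal in WldS nerves was 11.75 and 11.91 at day 0, 13.12 and 13.14 at day 3, 13.61 and 13.52 at day 7 and 13.28 and 13.16 at day 14. In C57BL/6 nerves it was 11.81 and 11.92 at day 0, 13.13 and 13.29 at day 3, 13.64 and 13.58 at day 7 and 13.27 and 13.29 at day 14. All arrays after the crush lay above all uninjured arrays, and the strains overlapped at every day. The change peaked at day 7, at 1.74 ± 0.11 in WldS (adjusted p = 7.8e-08) and 1.75 ± 0.11 in C57BL/6 (adjusted p = 2.3e-08), where values after ± are standard errors of log2 differences. Its partner Col5a1, the other main type V chain, rose at all 3 days in both strains, by 0.63, 1.02 and 0.67 in WldS and by 0.79, 0.88 and 0.56 in C57BL/6. The Col5a1 arrays read 10.89 and 10.85 at day 0, 11.60 and 11.41 at day 3, 11.86 and 11.93 at day 7 and 11.40 and 11.68 at day 14 in WldS. In C57BL/6, Col5a1 read 11.01 and 10.53 at day 0, 11.61 and 11.50 at day 3, 11.69 and 11.60 at day 7 and 11.35 and 11.31 at day 14. The uninjured C57BL/6 arrays were the pair furthest apart. The Col5a1 call was lost at day 3 in WldS without WldS day 3 replicate 1 (0.54). At day 14 it was lost in WldS without WldS day 14 replicate 2 (0.53) and in C57BL/6 without C57BL/6 day 0 replicate 2 (0.32) or C57BL/6 day 14 replicate 1 (0.54). The log2 change without that array stands in parentheses.

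The main fibril collagens, types I and III, were among the brightest signals on the arrays and changed little by the selected probe sets. Col1a1, the type I α1 chain, read 12.40 and 12.11 at day 0, 12.53 and 12.50 at day 3, 13.02 and 12.67 at day 7 and 12.95 and 12.84 at day 14 in WldS. In C57BL/6, Col1a1 read 12.12 and 12.07 at day 0, 12.46 and 12.48 at day 3, 12.83 and 12.71 at day 7 and 12.84 and 12.84 at day 14. It rose in WldS at days 7 and 14 (0.59 ± 0.13 and 0.64 ± 0.13) and in C57BL/6 at all 3 days (0.38 ± 0.13, 0.68 ± 0.13 and 0.75 ± 0.13). Col1a2, the type I α2 chain, read 13.72 and 13.94 at day 0, 14.12 and 14.06 at day 3, 14.35 and 14.18 at day 7 and 14.17 and 14.06 at day 14 in WldS. In C57BL/6, Col1a2 read 13.90 and 13.86 at day 0, 13.95 and 14.08 at day 3, 14.24 and 14.28 at day 7 and 14.11 and 14.14 at day 14. Its rise passed the test at day 7 alone, by 0.44 in WldS and 0.38 in C57BL/6. Col3a1, the type III chain, read 13.34 and 13.66 at day 0, 14.03 and 14.02 at day 3, 14.28 and 14.21 at day 7 and 14.15 and 14.01 at day 14 in WldS. In C57BL/6, Col3a1 read 13.60 and 13.64 at day 0, 13.90 and 14.07 at day 3, 14.24 and 14.22 at day 7 and 14.15 and 14.13 at day 14. It rose at all 3 days in both strains, by 0.75 in WldS and 0.61 in C57BL/6 at day 7. The call of Col1a1 at day 3 in C57BL/6 was lost without C57BL/6 day 0 replicate 1 (0.40), C57BL/6 day 0 replicate 2 (0.35), C57BL/6 day 3 replicate 1 (0.39) or C57BL/6 day 3 replicate 2 (0.37). That of Col3a1 there was lost without C57BL/6 day 0 replicate 1 (0.35), C57BL/6 day 0 replicate 2 (0.39) or C57BL/6 day 3 replicate 2 (0.28). The call of Col1a2 at day 7 was lost in WldS without WldS day 0 replicate 1 (0.33) or WldS day 7 replicate 1 (0.35). In C57BL/6 it was lost without C57BL/6 day 0 replicate 2 (0.37), C57BL/6 day 7 replicate 1 (0.41) or C57BL/6 day 7 replicate 2 (0.36). At day 14, Col1a1 passed the test in both strains and Col1a2 in neither.

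The brightest value on any array lay between 14.23 and 14.46, so Col1a2 and Col3a1 were read near the top of the scale. Dimmer probe sets of the same genes changed more. At day 7 the next brightest probe set of Col1a2 differed from day 0 by 1.57 in WldS and 1.00 in C57BL/6, that of Col3a1 by 2.12 and 1.59, and that of Col1a1 by 2.15 and 0.83. By that Col1a1 probe set the WldS level minus the C57BL/6 level was -0.59 at day 0 and 0.74 at day 7. The selected probe set gave 0.16 and 0.07. Across the 21 collagen genes with a further probe set above the dim limit, the 2 probe sets had the same sign of change at day 7 in 18 genes in WldS and in 19 in C57BL/6, and the dimmer one changed more in 13 and in 11 of them. The next brightest probe set was set as an alternative after the data had been seen.

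**Figure D3:**
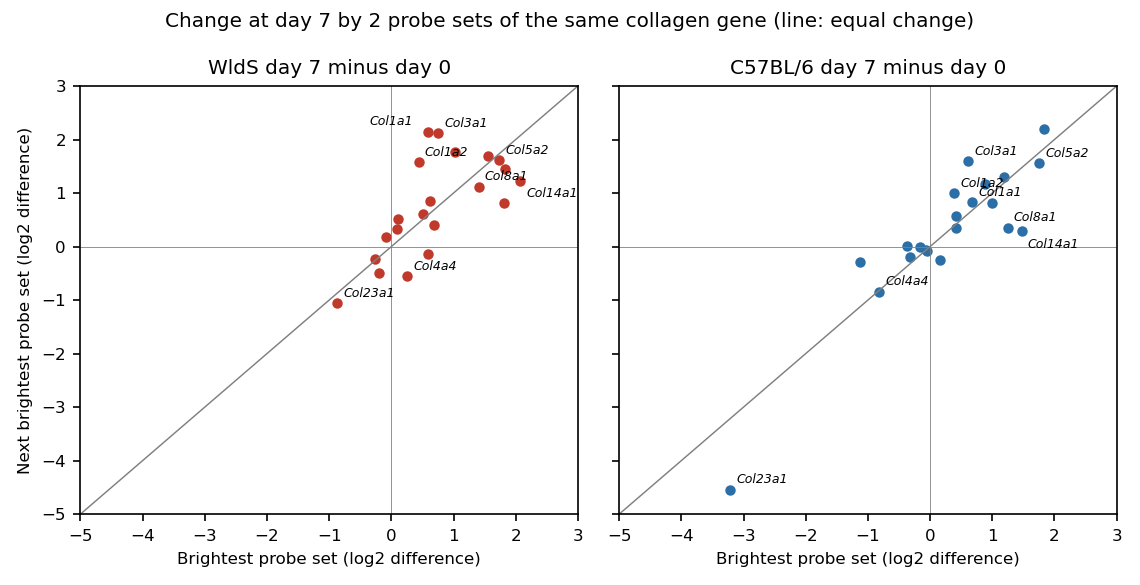
Log2 difference between day 7 and day 0 by the brightest probe set of a gene (horizontal axis) and by its next brightest probe set (vertical axis), for the 21 collagen genes that have both, in WldS (left) and C57BL/6 (right). Each point is 1 gene and the grey diagonal marks equal change. Col1a1, Col1a2 and Col3a1 lie above the diagonal in both strains.

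Genes of the rarer fibrillar types followed other time courses. Col11a1, a type XI chain that is known to nucleate fibrils, had log2 signals in WldS of 8.27 and 8.73 at day 0, 8.93 and 9.06 at day 3, 9.82 and 10.28 at day 7 and 10.27 and 10.04 at day 14. In C57BL/6 they were 8.53 and 8.61 at day 0, 9.81 and 9.33 at day 3, 9.52 and 9.62 at day 7 and 8.57 and 8.77 at day 14. Both strains were high at day 7, but at day 14 the WldS arrays were still high while the C57BL/6 arrays were near the uninjured ones. The WldS level at day 14 exceeded the C57BL/6 level by 1.49 ± 0.19 (adjusted p = 0.000385), and the change from day 0 differed between the strains by 1.56 ± 0.27 (adjusted p = 0.0114). That second call was lost without WldS day 14 replicate 1 (1.45), C57BL/6 day 0 replicate 1 (1.60) or C57BL/6 day 14 replicate 1 (1.46). The next brightest probe set gave 1.56 for that difference in change and 0.99 for the difference in level at day 14, both called.

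Col27a1, which encodes a type XXVII chain, rose late. Its WldS signals were 8.89 and 8.56 at day 0, 8.15 and 8.42 at day 3, 8.76 and 8.85 at day 7 and 9.78 and 10.12 at day 14. In C57BL/6, Col27a1 read 8.57 and 8.52 at day 0, 8.62 and 8.47 at day 3, 9.59 and 9.87 at day 7 and 10.45 and 10.14 at day 14. In WldS only the arrays of day 14 stood above the uninjured ones, while in C57BL/6 those of day 7 did so too. At day 7 the gene was 0.08 ± 0.16 from its day 0 level in WldS, which did not pass the test, and 1.19 ± 0.16 in C57BL/6 (adjusted p = 5.35e-05). The difference between these changes was -1.11 ± 0.23 (adjusted p = 0.0152), and its call was lost without WldS day 0 replicate 1 (-0.94), C57BL/6 day 0 replicate 1 (-1.13), C57BL/6 day 0 replicate 2 (-1.08) or C57BL/6 day 7 replicate 2 (-0.97). By day 14 it had risen in both strains, by 1.23 in WldS and 1.76 in C57BL/6. The fall at day 3 in WldS, -0.44 ± 0.16, kept its call in 8 of 26 alternative settings.

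Col2a1, the chain of the cartilage collagen type II, had log2 signals in WldS of 7.10 and 7.05 at day 0, 7.34 and 7.29 at day 3, 7.88 and 8.14 at day 7 and 7.32 and 7.53 at day 14. In C57BL/6, Col2a1 read 6.99 and 6.95 at day 0, 7.81 and 7.58 at day 3, 7.43 and 7.54 at day 7 and 6.79 and 6.59 at day 14. It rose at day 7 in both strains (0.94 ± 0.13 in WldS and 0.52 ± 0.13 in C57BL/6) and at day 3 in C57BL/6 (0.72 ± 0.13). WldS exceeded C57BL/6 by 0.53 ± 0.13 at day 7 and 0.74 ± 0.13 at day 14. The day 7 call was lost without WldS day 7 replicate 2 (0.40), C57BL/6 day 7 replicate 1 (0.47) or C57BL/6 day 7 replicate 2 (0.58), the day 14 call without C57BL/6 day 14 replicate 2 (0.64). The rise in C57BL/6 at day 7 was lost without C57BL/6 day 7 replicate 2 (0.46). Of the 6 cartilage and tendon markers tested, Acan, the cartilage proteoglycan, and Sox9, its regulator, passed the test on no day in either strain, Tnmd, a tendon membrane protein, rose at day 7 (1.07 in WldS and 0.42 in C57BL/6), and Fmod, a fibril-binding proteoglycan, fell throughout. Acan and Sox9 were singled out after their values were seen. Col5a3, a minor type V chain, read 11.03 and 11.23 at day 0, 11.24 and 11.21 at day 3, 11.87 and 11.57 at day 7 and 11.44 and 11.24 at day 14 in WldS. In C57BL/6, Col5a3 read 11.13 and 11.10 at day 0, 11.08 and 11.22 at day 3, 11.16 and 10.94 at day 7 and 11.38 and 11.20 at day 14. It rose in WldS at day 7, by 0.59 ± 0.14, and was higher there than in C57BL/6 by 0.67 ± 0.14. Its next brightest probe set gave -0.13 for the WldS change. The WldS call was lost without WldS day 7 replicate 1 (0.44) and the strain call without WldS day 7 replicate 1 (0.52) or C57BL/6 day 7 replicate 2 (0.56).

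The basement membrane chains did not all change alike. Col4a1 and Col4a2 encode the α1 and α2 chains of the ubiquitous type IV network, while Col4a3, Col4a4 and Col4a5 encode the chains of the α3α4α5 network, best known from kidney glomeruli. In C57BL/6 nerves Col4a3 and Col4a4 fell on all 3 days and Col4a5 at day 3, while Col4a1 and Col4a2 did not pass the test. By their selected probe sets, Col4a3 and Col4a4 did not pass the test on any day in WldS nerves, where Col4a1, Col4a2 and Col4a5 rose on some days.

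Of the 6 genes, Col4a4 fell most. Its WldS signals were 9.14 and 9.84 at day 0, 9.16 and 9.19 at day 3, 9.87 and 9.62 at day 7 and 9.60 and 9.22 at day 14. In C57BL/6, Col4a4 read 9.99 and 9.83 at day 0, 7.54 and 7.89 at day 3, 9.05 and 9.13 at day 7 and 8.52 and 8.36 at day 14. Every injured C57BL/6 array was below every uninjured one, and at days 3, 7 and 14 every C57BL/6 array was below every WldS array. At days 3, 7 and 14 the change was -0.31 ± 0.20, 0.25 ± 0.20 and -0.08 ± 0.20 in WldS, against -2.19 ± 0.20, -0.82 ± 0.20 and -1.47 ± 0.20 in C57BL/6. The day 7 call in C57BL/6 was lost without C57BL/6 day 0 replicate 1 (-0.74). The changes of the strains differed by 1.88 ± 0.28 at day 3 (adjusted p = 0.000981), 1.07 ± 0.28 at day 7 (adjusted p = 0.0496) and 1.39 ± 0.28 at day 14 (adjusted p = 0.0255). At days 3, 7 and 14 the next brightest probe set of Col4a4 gave WldS changes of -1.06, -0.55 and -0.59. Its dimmest one gave -0.39, -0.29 and -0.21, so its course in WldS depends on the probe set.

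Col4a3 read 7.15 and 7.64 at day 0, 7.26 and 7.10 at day 3, 7.59 and 7.41 at day 7 and 7.23 and 6.85 at day 14 in WldS. In C57BL/6, Col4a3 read 7.77 and 7.78 at day 0, 6.06 and 5.56 at day 3, 6.65 and 6.64 at day 7 and 6.59 and 6.21 at day 14. Again no injured C57BL/6 array overlapped the uninjured ones. The change was -0.22 ± 0.20, 0.10 ± 0.20 and -0.36 ± 0.20 in WldS and -1.96 ± 0.20, -1.13 ± 0.20 and -1.38 ± 0.20 in C57BL/6. The strains' changes differed by 1.74 ± 0.28 at day 3 (adjusted p = 0.00155) and 1.23 ± 0.28 at day 7 (adjusted p = 0.024), and at day 14 by 1.02 ± 0.28 without passing the test. Col4a5 read 8.29 and 8.94 at day 0, 8.59 and 8.54 at day 3, 9.29 and 9.32 at day 7 and 9.26 and 9.06 at day 14 in WldS. In C57BL/6, Col4a5 read 9.15 and 9.30 at day 0, 8.06 and 8.14 at day 3, 8.77 and 8.92 at day 7 and 8.97 and 8.79 at day 14. It fell in C57BL/6 at day 3 (-1.13 ± 0.17), rose in WldS at day 7 (0.69 ± 0.17) and day 14 (0.54 ± 0.17), and differed in its change by 1.07 ± 0.24 at day 3 and 1.07 ± 0.24 at day 7. By the next brightest probe sets the C57BL/6 changes were smaller, at -0.83, -0.28 and -0.37 for Col4a3, of which the day 3 value was called. For Col4a5 at day 3 the value was -0.38, which was not called.

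The day 3 differences of Col4a3 and Col4a4 kept their calls when any 1 array was left out and without both high-index arrays (1.49 and 1.53). They were smaller and not called by the next brightest probe sets, at 1.23 and 0.94, by which Col4a4 changed by -1.06 in WldS and -2.00 in C57BL/6. The day 7 differences were weaker: without both high-index arrays Col4a3 differed by 0.98 and Col4a4 by 0.72, neither called, and the calls were lost in 6 and 13 of the 16 fits that left out 1 array. The call of the Col4a4 difference at day 14 was lost in 6 of these fits, and the difference was 1.04 without WldS day 0 replicate 1. By the next brightest probe set the Col4a4 differences were 0.29 at day 7 and 0.86 at day 14, that of Col4a3 was 0.80 at day 7, and none was called. The Col4a5 differences kept their calls without WldS day 0 replicate 1 (0.75 at day 3 and 0.74 at day 7). At day 3 the call was lost without WldS day 3 replicate 1 (1.04), C57BL/6 day 0 replicate 2 (1.00) or C57BL/6 day 3 replicate 1 (1.03). At day 7 this was so without WldS day 7 replicate 2 (1.05), C57BL/6 day 0 replicate 1 (1.14), C57BL/6 day 0 replicate 2 (1.00), C57BL/6 day 7 replicate 1 (0.99) or C57BL/6 day 7 replicate 2 (1.14). By its next brightest probe set Col4a5 differed by 0.67 at day 3 and 0.38 at day 7, neither called.

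Col4a1 and Col4a2 rose together in WldS. Col4a1 read 12.23 and 12.68 at day 0, 12.95 and 12.94 at day 3, 12.98 and 12.95 at day 7 and 12.73 and 12.48 at day 14 in WldS. In C57BL/6, Col4a1 read 12.93 and 12.65 at day 0, 12.49 and 12.48 at day 3, 12.60 and 12.31 at day 7 and 12.41 and 12.41 at day 14. Col4a2 read 10.78 and 11.73 at day 0, 11.88 and 11.95 at day 3, 11.88 and 11.99 at day 7 and 11.59 and 11.34 at day 14 in WldS. In C57BL/6, Col4a2 read 11.71 and 11.58 at day 0, 11.48 and 11.41 at day 3, 11.42 and 11.20 at day 7 and 11.35 and 11.22 at day 14. In both genes WldS day 0 replicate 1 was the lowest of the 16 arrays. The rise in WldS was 0.49 ± 0.15 and 0.51 ± 0.15 for Col4a1 and 0.66 ± 0.22 and 0.68 ± 0.22 for Col4a2 at days 3 and 7. Without WldS day 0 replicate 1 it was 0.26 and 0.28 for Col4a1 and 0.18 and 0.20 for Col4a2, and none of these passed the test. They were also lost without either WldS array of the later day (0.49 to 0.52 for Col4a1 and 0.62 to 0.73 for Col4a2). In C57BL/6 the changes lay between -0.37 and -0.20 for the pair over the 3 days, without passing. The changes of Col4a1 differed between the strains by 0.79 ± 0.22 at day 3 and 0.84 ± 0.22 at day 7, calls that held in 4 and 5 of the 26 alternative settings. Without both high-index arrays they were 0.56 and 0.61, neither called. The sixth type IV gene, Col4a6, was called in no comparison. The rises of Col4a5 in WldS were 0.36 at day 7 and 0.22 at day 14 without the same array, and no longer called.

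Type IV genes lie in head-to-head pairs. In the reference gene order Col4a1 neighbours Col4a2 on chromosome 8, Col4a3 neighbours Col4a4 on chromosome 1 and Col4a5 neighbours Col4a6 on the X chromosome. The promoter windows of the first pair are shown because they overlap. Each runs from 250 bases before to 50 bases after the annotated start (RefSeq, GRCm38.p6), the starts lie 21 bases apart on opposite strands, and the capitals mark the 78 bases that both windows hold, read on opposite strands.
Col4a1, chr8:11312777-11313076, minus strand: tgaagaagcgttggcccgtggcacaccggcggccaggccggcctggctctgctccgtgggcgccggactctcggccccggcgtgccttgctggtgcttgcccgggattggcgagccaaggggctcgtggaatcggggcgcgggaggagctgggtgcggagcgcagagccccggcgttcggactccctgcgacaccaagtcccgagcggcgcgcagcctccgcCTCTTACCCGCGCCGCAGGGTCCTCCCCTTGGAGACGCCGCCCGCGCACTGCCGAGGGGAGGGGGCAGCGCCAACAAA
Col4a2, chr8:11312555-11312854, plus strand: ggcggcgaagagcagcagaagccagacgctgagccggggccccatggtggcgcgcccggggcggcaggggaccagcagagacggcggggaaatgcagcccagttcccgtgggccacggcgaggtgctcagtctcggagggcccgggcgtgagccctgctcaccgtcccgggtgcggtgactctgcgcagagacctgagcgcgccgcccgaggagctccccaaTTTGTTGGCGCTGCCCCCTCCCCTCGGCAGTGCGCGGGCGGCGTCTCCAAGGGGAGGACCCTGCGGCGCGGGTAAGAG
A search on both strands for the letters GGGCGG (the GC box) and CCAAT found 1 GC box and 1 CCAAT in the Col4a1 window and 3 and 1 in the Col4a2 window, and it found neither TATAAA nor TGACGTCA in either. The GC box of the Col4a1 window lies in the shared bases and is the same site as 1 of the 3 in the Col4a2 window. Over all 32851 windows of this length, GGGCGG occurs in 35.7%, CCAAT in 37.4%, TATAAA in 13.6% and TGACGTCA in 1.79%. The 36 windows of the 33 collagen genes with an entry held them in 22, 13, 5 and 1 cases. The starts of Col4a5 and Col4a6 lie 1343 bases apart, so their windows share no bases. Col4a3 had no window, so its pair with Col4a4 could not be shown. Whether promoter sequence bears on the changes of these genes was not tested.

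**Figure D4:**
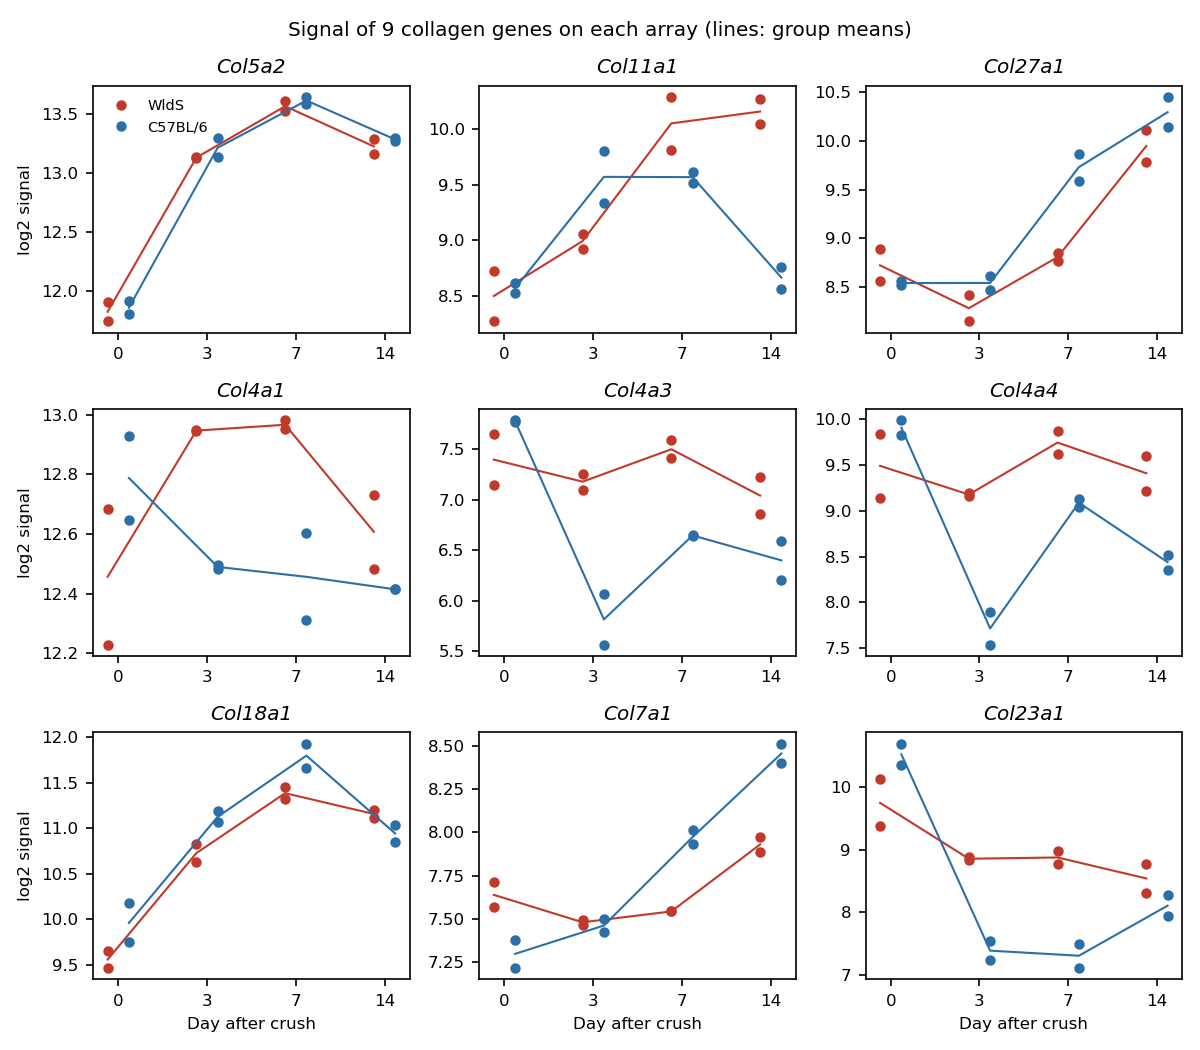
Log2 signal of 9 collagen genes on each array by day after crush, with WldS in red and C57BL/6 in blue, points for the arrays and lines joining the means of the 2 arrays of a group. Vertical axes differ between panels and do not start at 0. Col5a2 runs alike in both strains, Col4a3, Col4a4 and Col23a1 drop further in C57BL/6, Col7a1 climbs further in C57BL/6, and Col11a1 stays high at day 14 in WldS alone.

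Outside these classes the largest change was that of Col23a1, which encodes a membrane-spanning collagen. Its WldS arrays read 9.38 and 10.13 at day 0, 8.83 and 8.89 at day 3, 8.77 and 8.99 at day 7 and 8.77 and 8.31 at day 14. Its C57BL/6 arrays read 10.70 and 10.36 at day 0, 7.54 and 7.23 at day 3, 7.11 and 7.50 at day 7 and 7.94 and 8.27 at day 14. The signal fell in both strains, and at days 3, 7 and 14 the C57BL/6 arrays were all below the WldS ones. At day 14 the mean gap was 0.44, which was not called, nor was the difference of the changes on that day. The change was -0.89 ± 0.24, -0.87 ± 0.24 and -1.21 ± 0.24 in WldS, against -3.14 ± 0.24, -3.22 ± 0.24 and -2.42 ± 0.24 in C57BL/6, which at day 7 is a 9.33-fold lower signal in C57BL/6. The difference of the changes was 2.25 ± 0.33 at day 3 (adjusted p = 0.000878) and 2.35 ± 0.33 at day 7 (adjusted p = 0.000974). Both calls held in all 26 alternative settings, with 2.50 and 3.49 by the next brightest probe set. The falls in WldS lost their calls at day 3 without WldS day 0 replicate 2 (-0.52) or WldS day 3 replicate 1 (-0.87). The day 7 fall lost it without WldS day 0 replicate 2 (-0.50) or WldS day 7 replicate 1 (-0.76).
The promoter window of Col23a1 is shown because this gene had the largest difference between the strains among the collagen genes tested, with the reverse strand of its single GC box, 11 bases before the start, in capitals.
Col23a1, chr11:51289670-51289969, plus strand: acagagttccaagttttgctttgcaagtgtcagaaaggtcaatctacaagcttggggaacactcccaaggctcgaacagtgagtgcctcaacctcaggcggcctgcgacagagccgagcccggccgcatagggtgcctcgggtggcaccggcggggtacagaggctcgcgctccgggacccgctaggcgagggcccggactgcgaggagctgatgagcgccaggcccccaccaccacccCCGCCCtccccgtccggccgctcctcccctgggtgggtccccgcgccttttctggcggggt
The other motifs searched were not found in it. Of the other membrane-spanning genes above the dim limit, Col25a1 was called in no comparison, and Col13a1 fell once, in WldS at day 7 (-0.45 ± 0.14), where both arrays lay below that limit. That call was lost without WldS day 0 replicate 1 (-0.22), WldS day 7 replicate 1 (-0.45) or WldS day 7 replicate 2 (-0.45).

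The chains of type VIII, a network-forming collagen of vessels and basement membranes, moved in opposite directions by their selected probe sets. Col8a1 rose on all 3 days in both strains, by 0.87, 1.40 and 1.08 in WldS and 0.96, 1.25 and 0.80 in C57BL/6. Its next brightest probe set gave 1.02, 1.12 and 0.40 in WldS and 0.71, 0.35 and -0.50 in C57BL/6. The C57BL/6 day 14 value was called as a fall, so the direction on that day depends on the probe set. Col8a2 read 7.36 and 7.51 at day 0, 6.14 and 6.37 at day 3, 7.28 and 6.64 at day 7 and 6.16 and 5.80 at day 14 in WldS. In C57BL/6, Col8a2 read 7.38 and 7.59 at day 0, 5.29 and 5.12 at day 3, 6.01 and 5.83 at day 7 and 5.53 and 5.62 at day 14. All injured arrays were below the uninjured ones of their strain. The fall was -1.18 ± 0.19, -0.47 ± 0.19 and -1.45 ± 0.19 in WldS, of which the day 7 value did not pass the test, and -2.28 ± 0.19, -1.56 ± 0.19 and -1.90 ± 0.19 in C57BL/6. WldS exceeded C57BL/6 by 1.05 ± 0.19 at day 3 and 1.04 ± 0.19 at day 7, and the changes differed by 1.10 ± 0.26 and 1.09 ± 0.26 on these days. The C57BL/6 arrays of day 3 lay below the dim limit, so the sizes of the day 3 fall in C57BL/6 and of the day 3 differences are not firm. Without both high-index arrays the differences of the changes were 1.02 and 1.01, and no longer called. The day 7 call was lost in 6 of the 16 fits that left out 1 array. The day 3 call was lost without WldS day 0 replicate 1 (1.02), WldS day 3 replicate 2 (0.99), C57BL/6 day 0 replicate 2 (1.00) or C57BL/6 day 3 replicate 2 (1.02).

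Type VI collagen forms beaded filaments from α1, α2 and α3 chains. Col6a3, the α3 chain, read 10.56 and 11.14 at day 0, 12.28 and 12.35 at day 3, 12.86 and 12.79 at day 7 and 11.89 and 11.67 at day 14 in WldS. In C57BL/6, Col6a3 read 11.49 and 11.27 at day 0, 12.12 and 12.22 at day 3, 12.61 and 12.31 at day 7 and 11.80 and 11.85 at day 14. All arrays of days 3 and 7 were above the uninjured ones. It rose by 1.47 ± 0.17, 1.98 ± 0.17 and 0.93 ± 0.17 in WldS and by 0.79 ± 0.17 and 1.08 ± 0.17 at days 3 and 7 in C57BL/6. Col6a1 read 12.03 and 12.63 at day 0, 12.83 and 12.80 at day 3, 13.29 and 13.33 at day 7 and 12.85 and 12.70 at day 14 in WldS. In C57BL/6, Col6a1 read 12.93 and 12.60 at day 0, 12.65 and 12.56 at day 3, 13.13 and 12.97 at day 7 and 12.97 and 12.84 at day 14. It rose in WldS at days 3 and 7 (0.48 ± 0.17 and 0.98 ± 0.17). The day 3 rise was not called without WldS day 0 replicate 1 (0.19), WldS day 3 replicate 1 (0.47) or WldS day 3 replicate 2 (0.50). Col6a2 read 12.59 and 12.28 at day 0, 12.56 and 12.54 at day 3, 13.13 and 12.98 at day 7 and 12.49 and 12.74 at day 14 in WldS. In C57BL/6, Col6a2 read 12.34 and 12.32 at day 0, 12.42 and 12.24 at day 3, 12.86 and 12.63 at day 7 and 12.59 and 12.51 at day 14. It rose at day 7 in both strains (0.62 ± 0.13 in WldS and 0.42 ± 0.13 in C57BL/6). The C57BL/6 call was lost without C57BL/6 day 0 replicate 1 (0.43), C57BL/6 day 0 replicate 2 (0.41) or C57BL/6 day 7 replicate 1 (0.30). The Col6a3 changes differed between the strains by 0.90 ± 0.24 at day 7 (adjusted p = 0.0483), a call that held in 4 of the 26 alternatives and was 0.61 without WldS day 0 replicate 1, the lowest array of the 16 for this gene.

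Of the 8 FACIT genes tested, 3, 3 and 3 rose and 2, 0 and 0 fell in WldS at days 3, 7 and 14, and 2, 2 and 3 rose and 2, 1 and 1 fell in C57BL/6. Col14a1, whose product decorates type I fibrils, read 10.14 and 10.64 at day 0, 11.64 and 11.43 at day 3, 12.56 and 12.37 at day 7 and 11.62 and 11.25 at day 14 in WldS. In C57BL/6, Col14a1 read 10.77 and 10.79 at day 0, 11.43 and 11.65 at day 3, 12.30 and 12.21 at day 7 and 11.24 and 11.46 at day 14. It rose on all days in both strains and most at day 7, by 2.07 ± 0.17 in WldS and 1.47 ± 0.17 in C57BL/6. Its next brightest probe set gave -0.27 and -0.18 for C57BL/6 at days 3 and 14, opposite in sign to the selected probe set (0.76 and 0.57). That probe set gave 0.29 for C57BL/6 at day 7, and 0.39, 1.23 and 0.45 for WldS at days 3, 7 and 14. The day 14 call of Col14a1 in C57BL/6 was lost without C57BL/6 day 0 replicate 1 (0.56), C57BL/6 day 0 replicate 2 (0.58) or C57BL/6 day 14 replicate 2 (0.46). Col12a1, a related fibril-bound chain, read 7.54 and 8.06 at day 0, 9.19 and 9.39 at day 3, 9.73 and 9.48 at day 7 and 8.60 and 8.03 at day 14 in WldS. In C57BL/6, Col12a1 read 8.50 and 8.09 at day 0, 9.02 and 9.55 at day 3, 8.84 and 8.58 at day 7 and 8.34 and 8.23 at day 14. In both strains it was high at day 3, and at day 7 the WldS arrays alone stayed at that height. It exceeded C57BL/6 in WldS by 0.90 ± 0.23 at day 7, and the changes differed by 1.39 ± 0.33 (adjusted p = 0.028), which was 0.26 and not called by the next brightest probe set. The call was also lost without WldS day 0 replicate 1 (1.13), WldS day 7 replicate 1 (1.27), C57BL/6 day 0 replicate 1 (1.19), C57BL/6 day 7 replicate 1 (1.52) or C57BL/6 day 7 replicate 2 (1.26).

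The other FACIT genes that passed the test were late or low at day 3. Col16a1 rose at days 7 and 14 in both strains, by 0.93 and 1.39 in WldS and by 1.09 and 1.32 in C57BL/6, and at day 3 in WldS (0.40, against an uncalled 0.08 in C57BL/6). That difference between the strains did not pass the test, and the WldS call was lost without WldS day 0 replicate 1 (0.34), WldS day 3 replicate 1 (0.39) or WldS day 3 replicate 2 (0.41). Col9a3, a chain of type IX, fell at day 3 (-0.44 in WldS and -0.59 in C57BL/6) and rose by day 14 (0.71 ± 0.14 in WldS and 1.38 ± 0.14 in C57BL/6). Its partner Col9a2 fell at day 3 in both strains (-0.43 and -0.61). At days 7 and 14 it was -0.29 and -0.20 in WldS, which did not pass the test, and fell by 0.66 and 0.44 in C57BL/6, a difference between the strains that was not called. The day 3 falls in WldS were lost for Col9a3 without WldS day 0 replicate 2 (-0.29), WldS day 3 replicate 1 (-0.41) or WldS day 3 replicate 2 (-0.47) and, for Col9a2, without WldS day 0 replicate 2 (-0.31) or WldS day 3 replicate 1 (-0.31). The day 14 fall of Col9a2 in C57BL/6 was lost without C57BL/6 day 0 replicate 1 (-0.41), C57BL/6 day 0 replicate 2 (-0.46), C57BL/6 day 14 replicate 1 (-0.44) or C57BL/6 day 14 replicate 2 (-0.43). The third type IX chain, Col9a1, was called in no comparison by its selected probe set, which gave -0.16 in WldS and 0.09 in C57BL/6 at day 14. Its next brightest probe set gave 0.44 in WldS and 1.34 in C57BL/6 on that day, so its course depends on the probe set.

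The 2 multiplexins gave different calls. Col18a1, which encodes the basement membrane collagen that yields endostatin, read 9.47 and 9.65 at day 0, 10.62 and 10.83 at day 3, 11.32 and 11.45 at day 7 and 11.20 and 11.11 at day 14 in WldS. In C57BL/6, Col18a1 read 10.17 and 9.75 at day 0, 11.19 and 11.07 at day 3, 11.93 and 11.67 at day 7 and 10.85 and 11.03 at day 14. All injured arrays were above all uninjured ones. The rise at day 7 was 1.83 ± 0.15 in WldS and 1.84 ± 0.15 in C57BL/6, a day on which no type IV gene rose in C57BL/6. Col15a1, its relative, fell at day 3 in both strains (-0.95 ± 0.16 in WldS and -0.64 ± 0.16 in C57BL/6) and did not pass the test later, the C57BL/6 call being lost without C57BL/6 day 3 replicate 2 (-0.42). Counting the multiplexins with type IV as basement membrane genes gave 3, 4 and 2 of 8 higher and 1, 0 and 0 lower in WldS, and 1, 1 and 1 higher and 4, 2 and 2 lower in C57BL/6.

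Col7a1, the chain of anchoring fibrils, read 7.71 and 7.57 at day 0, 7.47 and 7.50 at day 3, 7.54 and 7.54 at day 7 and 7.89 and 7.98 at day 14 in WldS. In C57BL/6, Col7a1 read 7.22 and 7.38 at day 0, 7.50 and 7.43 at day 3, 7.93 and 8.01 at day 7 and 8.40 and 8.51 at day 14. It climbed in C57BL/6, where the arrays of days 7 and 14 were above all others of that strain, and did not pass the test in WldS. The change was -0.10 ± 0.11 and 0.29 ± 0.11 in WldS and 0.67 ± 0.11 and 1.16 ± 0.11 in C57BL/6 at days 7 and 14. These differed by -0.77 ± 0.15 (adjusted p = 0.0107) and -0.87 ± 0.15 (adjusted p = 0.0114). The day 7 call was lost without C57BL/6 day 7 replicate 2 (-0.73). The day 14 call was lost without WldS day 14 replicate 1 (-0.82), C57BL/6 day 0 replicate 1 (-0.78) or C57BL/6 day 14 replicate 2 (-0.81). Col26a1 passed the test once against day 0, rising in C57BL/6 at day 7 (0.67 ± 0.18), a call lost without C57BL/6 day 0 replicate 1 (0.55) or C57BL/6 day 7 replicate 2 (0.58). By their selected probe sets, the 7 tested genes Col4a6, Col6a4, Col9a1, Col10a1, Col20a1, Col22a1 and Col25a1 were called in none of the 17 comparisons. Their log2 differences lay between -0.36 and 0.53.

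The 5 genes below the dim limit were Col6a5, Col11a2, Col17a1, Col19a1 and Col24a1. Col24a1, a fibrillar chain, lay just under it, with a mean of 5.35 over the 16 arrays, and is described after its values were seen. Its WldS signals were 6.58 and 6.65 at day 0, 5.38 and 5.67 at day 3, 5.81 and 5.66 at day 7 and 5.67 and 5.54 at day 14. In C57BL/6, Col24a1 read 6.87 and 6.62 at day 0, 4.04 and 4.14 at day 3, 4.04 and 4.30 at day 7 and 4.34 and 4.33 at day 14. All injured arrays were below the uninjured ones, and at each day after the crush the C57BL/6 arrays were below the WldS ones. In a fit without the dim limit (18193 genes) it fell in both strains, and the changes at days 3, 7 and 14 were -1.09 ± 0.13, -0.88 ± 0.13 and -1.01 ± 0.13 in WldS and -2.65 ± 0.13, -2.57 ± 0.13 and -2.41 ± 0.13 in C57BL/6. The changes of the strains differed by 1.56 ± 0.18, 1.69 ± 0.18 and 1.40 ± 0.18 on these days, each called in that fit. All 6 injured C57BL/6 arrays lay below the dim limit, so the sizes of the C57BL/6 falls, and of their gap to WldS, are not firm. Its promoter window is shown because it alone of the 36 collagen windows holds TGACGTCA, the cAMP response element, marked in capitals. The first base of the element lies 7 bases before the annotated start, and its last base is the start itself.
Col24a1, chr3:145292222-145292521, plus strand: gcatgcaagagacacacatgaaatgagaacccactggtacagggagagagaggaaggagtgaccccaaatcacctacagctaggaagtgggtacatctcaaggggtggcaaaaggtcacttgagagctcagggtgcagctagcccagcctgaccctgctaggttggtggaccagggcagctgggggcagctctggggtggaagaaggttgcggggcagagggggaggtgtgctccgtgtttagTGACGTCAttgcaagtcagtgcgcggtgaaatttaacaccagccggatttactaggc
In the same fit Col6a5 fell in both strains (-0.80 in WldS and -0.70 in C57BL/6 at day 3), with no array above 5.72. Col11a2 passed the test once (0.33 ± 0.10 in C57BL/6 at day 7), and Col17a1 and Col19a1 never did.

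Uninjured nerves of the strains differed in no collagen gene by this test, 0 of 37, where 0.227% of all genes were called and 17.5% had an unadjusted p below 0.05. Without WldS day 0 replicate 2, so with the high-index array alone for WldS, 9 collagen genes were called. After the crush, 4, 8 and 4 collagen genes differed between the strains at days 3, 7 and 14, where 9.44%, 6.83% and 6.46% of all genes did. Those higher in WldS were Col4a3, Col4a4, Col8a2 and Col23a1 at day 3, Col2a1, Col4a3, Col5a3, Col8a2, Col12a1 and Col23a1 at day 7, and Col2a1, Col4a4 and Col11a1 at day 14. Those lower in WldS were Col7a1 and Col27a1 at day 7 and Col7a1 at day 14. By the next brightest probe sets the difference between the strains was 0.84 for Col4a3 at day 3, and at day 7 it was 0.41 for Col4a3, 0.035 for Col5a3 and 0.38 for Col12a1, none of them called. Beside those given above, a strain call was lost at day 7 for Col4a3 without WldS day 7 replicate 1 (0.76), C57BL/6 day 7 replicate 1 (0.86) or C57BL/6 day 7 replicate 2 (0.85). For Col7a1 this was so without WldS day 7 replicate 1 (-0.43), WldS day 7 replicate 2 (-0.43), C57BL/6 day 7 replicate 1 (-0.47) or C57BL/6 day 7 replicate 2 (-0.39). For Col8a2 it was lost without C57BL/6 day 7 replicate 2 (0.95). The Col12a1 call was lost without WldS day 7 replicate 1 (0.77), WldS day 7 replicate 2 (1.02), C57BL/6 day 7 replicate 1 (1.03) or C57BL/6 day 7 replicate 2 (0.77), and that of Col27a1 without C57BL/6 day 7 replicate 2 (-0.79). At day 14 it was lost for Col4a4 without WldS day 14 replicate 1 (0.78), C57BL/6 day 14 replicate 1 (1.05) or C57BL/6 day 14 replicate 2 (0.89) and for Col7a1 without WldS day 14 replicate 1 (-0.48) or C57BL/6 day 14 replicate 2 (-0.47). The change from day 0 differed between the strains in 6, 10 and 3 genes, where 6.16%, 4.11% and 1.58% of all genes were called. Type IV made up 4, 4 and 1 of these and fibrillar genes 0, 1 and 1, not counting Col24a1, which the dim limit left out. By selected probe sets, medians of this difference were 0.96, 1.04 and 0.72 for type IV and -0.11, 0.14 and 0.03 for fibrillar genes. For the others they were 0.13, 0.13 and 0.19, while those over all genes lay between 0.00 and 0.03. WldS and C57BL/6 changes at day 7 by the next brightest ones were 2.15 and 0.83 for Col1a1 and 1.57 and 1.00 for Col1a2. They were 2.12 and 1.59 for Col3a1, 1.77 and 1.17 for Col5a1, 1.62 and 1.56 for Col5a2, and -0.13 and -0.07 for Col5a3. Col11a1 gave 1.69 and 0.82 and Col27a1 0.34 and 1.30. The type IV differences at day 7 were then 0.81 for Col4a1, 0.80 for Col4a3, 0.29 for Col4a4 and 0.38 for Col4a5. Since both comparisons with day 0 enter the difference in change, the low WldS day 0 replicate 1 for type IV genes enters it as well. Without both high-index arrays 4 collagen genes were called at day 7. The differences in change that lost their call without both arrays were, at day 3, those of Col4a1 (0.56) and Col8a2 (1.02). At day 7 they were those of Col4a1 (0.61), Col4a3 (0.98), Col4a4 (0.72), Col6a3 (0.61), Col8a2 (1.01) and Col12a1 (1.13). Among WldS changes from day 0, those of Col4a1 (0.26), Col4a2 (0.18), Col6a1 (0.19), Col16a1 (0.34) and Col27a1 (-0.28) lost it at day 3. Those of Col1a2 (0.33), Col4a1 (0.28), Col4a2 (0.20), Col4a5 (0.36) and Col13a1 (-0.22) lost it at day 7, and those of Col4a5 (0.31), Col5a1 (0.55) and Col9a3 (0.52) at day 14. Without C57BL/6 day 7 replicate 2, 1 gene differed between the strains at day 7 and 1 in its change, and without WldS day 14 replicate 1 or C57BL/6 day 0 replicate 1, 0 differed in their change at day 14.

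**Figure D5:**
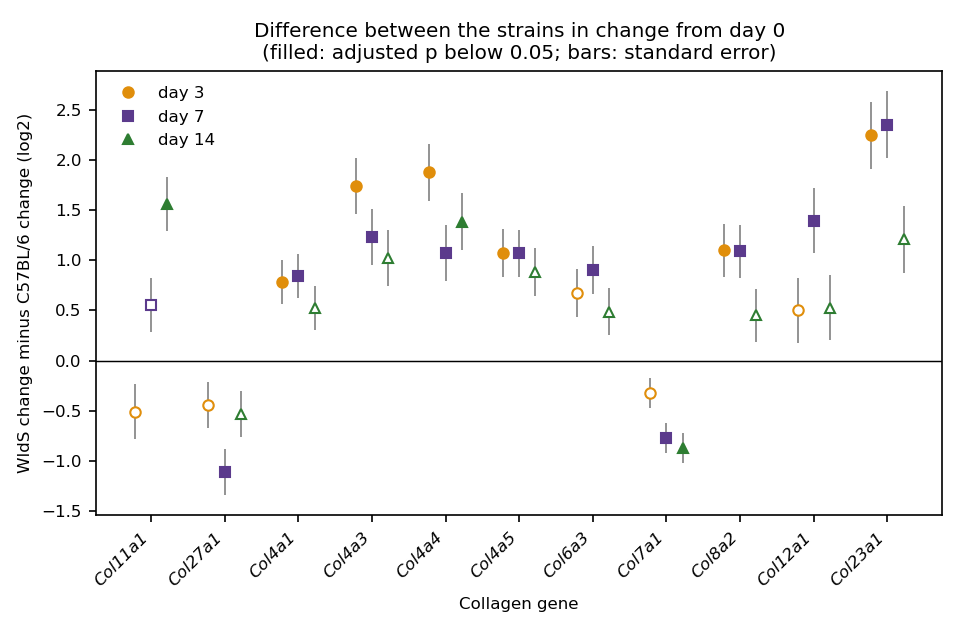
Difference between the strains in the change from day 0 (WldS change minus C57BL/6 change, log2) for the 11 collagen genes called on at least 1 day, with circles for day 3, squares for day 7 and triangles for day 14. Filled marks passed limma's adjusted p below 0.05, open marks did not, and bars are standard errors. Col23a1 has the largest values, above 2 at days 3 and 7, and only Col27a1, Col7a1 and, at day 3, Col11a1 lie below 0.

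From day 3 to day 7, 12 collagen genes rose and none fell in WldS (3.04% and 3.58% of all genes), and 13 rose and none fell in C57BL/6 (9.60% and 10.7%). The type IV genes Col4a3, Col4a4 and Col4a5 were among those that rose in C57BL/6 (by 0.83, 1.37 and 0.75). For Col4a3 that call was lost without C57BL/6 day 3 replicate 2 (0.58), C57BL/6 day 7 replicate 1 (0.83) or C57BL/6 day 7 replicate 2 (0.83). For Col4a5 it was lost without C57BL/6 day 3 replicate 1 (0.71) or C57BL/6 day 7 replicate 2 (0.67). Without WldS day 3 replicate 1 the WldS count was 3, and without C57BL/6 day 7 replicate 2 the C57BL/6 count was 6. From day 7 to day 14, 3 rose and 5 fell in WldS (1.61% and 3.62%), and 3 rose and 5 fell in C57BL/6 (2.48% and 2.79%). The count was 3 in WldS without WldS day 14 replicate 2 and 2 in C57BL/6 without C57BL/6 day 7 replicate 1 or C57BL/6 day 14 replicate 1. Col14a1 fell back in both strains (-1.03 in WldS and -0.90 in C57BL/6), while Col9a3 rose in both (0.68 and 1.07). The Col14a1 fall was not called in WldS without WldS day 14 replicate 2 (-0.84), nor in C57BL/6 without C57BL/6 day 7 replicate 1 (-0.85) or C57BL/6 day 14 replicate 1 (-0.79). The Col9a3 rise in WldS was not called without WldS day 7 replicate 2 (0.49) or WldS day 14 replicate 2 (0.65). Among the 9 fibrillar genes, the highest group mean fell on day 7 in 6 and on day 14 in 3 in WldS, and on day 3 in 2, day 7 in 4 and day 14 in 3 in C57BL/6.

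Genes that make, bind, cut or accompany collagen were counted from lists. Among all genes tested, 20.8%, 21.9% and 12.7% rose and 15.2%, 13.3% and 8.56% fell in WldS at days 3, 7 and 14. In C57BL/6, 22.6%, 19.6% and 17.1% rose and 18.4%, 16.4% and 16.7% fell. These shares are the background for each list count, including those of the cell type markers. Of 26 collagen-making enzymes and chaperones, 15, 18 and 6 rose and 3, 2 and 3 fell in WldS, and 12, 10 and 5 rose and 3, 4 and 7 fell in C57BL/6 at days 3, 7 and 14. Pcolce2, an enhancer of procollagen C-terminal cleavage, fell at day 7 by 0.86 in WldS and 0.87 in C57BL/6, and Adamts3, a procollagen N-proteinase, rose (1.09 in WldS and 0.51 in C57BL/6). The crosslinking oxidase Lox rose in WldS at day 7 (0.68) and fell in C57BL/6 (-0.65), and Loxl1, of the same family, rose in both (1.89 and 0.59), and both differed between the strains in their change (1.33 and 1.30). Of 8 collagen receptors, 3, 5 and 2 rose and none fell in WldS, and 2, 3 and 2 rose and 0, 1 and 1 fell in C57BL/6. Itga1, the integrin chain that binds type IV collagen, rose in WldS at day 3 (0.60) and fell in C57BL/6 at days 7 and 14 (-0.64 and -1.18), and its change differed between the strains by 0.83, 0.94 and 1.03.

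Of 9 genes of collagen breakdown and its inhibitors, 3, 5 and 5 rose and 1, 1 and 1 fell in WldS, and 4, 6 and 4 rose and 2, 2 and 2 fell in C57BL/6. Timp1, a metalloproteinase inhibitor, rose (4.17 in WldS and 5.09 in C57BL/6 at day 3), and Mmp14, a membrane collagenase, rose throughout (1.95 and 1.22 at day 7). Of 21 matrix genes found beside collagen, 8, 14 and 11 rose and 4, 1 and 2 fell in WldS, and 6, 11 and 10 rose and 6, 2 and 2 fell in C57BL/6. Cthrc1, a secreted protein with a collagen repeat, rose by 5.39 in WldS and 4.43 in C57BL/6 at day 7, and Tnc, the glycoprotein tenascin C, by 3.97 and 4.54. Thbs2, a matricellular thrombospondin, rose by 2.22 in WldS and 2.69 in C57BL/6.

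Markers of other cell types also changed. Of 11 fibroblast and perineurial markers, 0, 1 and 0 rose and 4, 1 and 3 fell in WldS, and 0, 0 and 0 rose and 10, 4 and 9 fell in C57BL/6. Their summed linear signal at days 0, 3, 7 and 14 was 42453 to 52387, 39874 to 42381, 52005 to 52681 and 40137 to 48607 in WldS, and 55005 to 55244, 31848 to 31896, 43392 to 43962 and 37806 to 39541 in C57BL/6. Of these markers, Itgb4, an integrin chain, and Cldn1, a tight junction protein of perineurial cells, fell at day 3 in C57BL/6 (-2.52 and -1.67). They did not pass the test in WldS (-0.40 and 0.17), and their changes differed by 2.12 and 1.85. Of 11 endothelial and mural markers, 6, 6 and 1 rose and 1, 0 and 3 fell in WldS, and 0, 1 and 0 rose and 3, 4 and 7 fell in C57BL/6. Their summed signals were 14126 to 15441, 17351 to 18134, 16549 to 16775 and 10450 to 10979 in WldS and 16348 to 17001, 13724 to 14031, 10903 to 11444 and 8425 to 9039 in C57BL/6. The 8 Schwann cell markers summed to 49907 to 51645, 37028 to 37097, 43905 to 43968 and 47655 to 53007 in WldS and to 51871 to 51991, 19806 to 20146, 27766 to 28797 and 55244 to 57415 in C57BL/6. Of these, 0, 1 and 4 rose and 6, 3 and 1 fell in WldS, against 0, 4 and 3 that rose and 6, 4 and 1 that fell in C57BL/6. The 10 macrophage markers summed to 11936 to 13792, 41914 to 46391, 25351 to 31544 and 18392 to 19341 in WldS and to 14715 to 16390, 38280 to 39088, 34731 to 36662 and 30433 to 33443 in C57BL/6. Of these, 10, 10 and 5 rose and none fell in WldS, against 10, 7 and 7 that rose and 0, 0 and 1 that fell in C57BL/6. Their part in the changes of the collagen genes was not tested.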

How the data were processed

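RNA of pooled nerve pieces was hybridised to 16 Affymetrix mouse whole-genome arrays. The deposited values are log2 signals that the authors normalized between arrays. The submitters' processing notes list Partek, limma, RMA and GCOS and give no roles. Of 45101 probe sets, 34945 had 1 gene symbol in the platform annotation, 932 had several and 9160 were unlisted, and 64 were controls. Each gene was represented by its probe set of highest mean, and genes under the 30th percentile were left out. limma 3.58.1 in R 4.3.3 fitted 8 group means on all 16 arrays (8 residual degrees of freedom), with 17 contrasts, moderated variances and Benjamini-Hochberg adjustment over 14545 genes per contrast. A gene was called at an adjusted p below 0.05. All comparisons of a strain's later days with day 0 share its day 0 arrays. The fit was tested on simulated data. Alternatives covered the filter, probe set, normalization, block, array weights, RNA index and single arrays. In each class up to 6 called genes with the largest change from day 0, all genes called between the strains and the chain partners were described in full, and from each companion list up to 4 called genes with the largest change. The members, classes and lists were chosen with earlier results of these data known. Promoter windows are from RefSeq (GRCm38.p6).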

Additional observations from a re-analysis of the deposited data

Results flagged for a closer look

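For 11 collagen genes the change from day 0 differed between WldS and C57BL/6 nerves by a test of that difference itself (limma's interaction term, Benjamini-Hochberg adjusted over 14545 genes), in 19 results. The values are the WldS change minus the C57BL/6 change on the log2 scale. Positive differences at day 3 were 2.25 for Col23a1, 1.88 for Col4a4, 1.74 for Col4a3, 1.10 for Col8a2, 1.07 for Col4a5 and 0.79 for Col4a1. At day 7 they were 2.35 for Col23a1, 1.39 for Col12a1, 1.23 for Col4a3, 1.09 for Col8a2, 1.07 for Col4a4, 1.07 for Col4a5, 0.90 for Col6a3 and 0.84 for Col4a1. At day 14 they were 1.56 for Col11a1 and 1.39 for Col4a4. Negative differences were -1.11 for Col27a1 and -0.77 for Col7a1 at day 7, and -0.87 for Col7a1 at day 14. The Col23a1 results alone kept their calls in all 26 alternative settings. With 2 arrays a group, no test for a single array standing apart within a group was made.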

How the results depend on the processing

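Of 186 gene results called, 80 kept their call in all 26 alternative settings, 16 of which left out 1 array, and 106 lost it in at least 1. The cause of the changes was not tested. Signs reversed in 6, all by the next brightest probe set, an alternative chosen after seeing the data: Col14a1 in C57BL/6 at day 3 (-0.27) and day 14 (-0.18), Col8a1 in C57BL/6 at day 14 (-0.50), Col5a3 in WldS at day 7 against day 0 (-0.13) and against day 3 (-0.067), and Col4a5 in WldS at day 14 (-0.019). Counts of collagen genes moved by over 1.5 times as follows. Fitting the contrast's own groups alone gave 10, 12 and 8 genes in WldS at days 3, 7 and 14 against day 0 (18, 21 and 15 with all groups), 5 and 2 in WldS for day 7 against day 3 and day 14 against day 7 (12 and 8), 14 in C57BL/6 for day 14 against day 7 (8), 7 between the strains at day 3 (4), and 4 and 1 differences in change at days 7 and 14 (10 and 3). Array weights gave 13 in C57BL/6 for day 14 against day 7 and 10 between the strains at day 3. The 3′/5′ index as a covariate gave 8 and 7 between the strains at days 3 and 14 (4 each) and 5 differences in change at each of days 7 and 14. Without both high-index arrays there were 8 between the strains at day 3 and 4 differences in change at day 7. The next brightest probe set gave 13 in WldS for day 14 against day 7, 7 between the strains at day 14, and 2 and 5 differences in change at days 3 and 7 (6 and 10), and the mean of all probe sets 6 at day 7.

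Leaving out 1 array gave 9 to 19, 16 to 21 and 14 to 21 genes in WldS at days 3, 7 and 14 against day 0, and 16 to 19, 18 to 23 and 14 to 21 in C57BL/6. Day 7 against day 3 gave 3 to 18 in WldS and 6 to 14 in C57BL/6, and day 14 against day 7 gave 3 to 12 and 2 to 11. Between the strains there were 0 to 9, 4 to 9, 1 to 12 and 1 to 5 at days 0, 3, 7 and 14, and 4 to 9, 1 to 14 and 0 to 8 differences in change at days 3, 7 and 14. The lowest counts came without WldS day 3 replicate 1 (9 and 3 in WldS at day 3 and for day 7 against day 3) and without C57BL/6 day 7 replicate 2 (6 in C57BL/6 for day 7 against day 3, 1 between the strains and 1 difference in change at day 7), and the 9 at day 0 without WldS day 0 replicate 2. Same-numbered arrays did not deviate together (correlations of -0.58 to 0.19 over 28 pairs of groups, median 0.01), so the numbers were not taken as pairs. A fit with the replicate number as a block lost 6 of the 186 calls and left the count at 17, 21 and 15 in WldS and 19, 21 and 16 in C57BL/6 at days 3, 7 and 14. The number of arrays, 2 a group, limits precision.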
